A study of Homo sapiens with 38 samples.

Results

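The genes described here encode the core histones H2A, H2B, H3 and H4 and the linker histone H1. They were taken from the array annotation by symbol (H1-, H2AC, H2BC, H3C or H4C, or an older HIST1 to HIST4 name), keeping probe sets annotated to exactly 1 gene and, for each gene, the 1 whose mean over all arrays was highest. This gave 46 genes, carried by 54 probe sets, of 19775 genes with a probe set of their own. By family they were 9 H1, 8 H2A, 14 H2B, 7 H3 and 8 H4 genes. A further 4 symbols that fit the wording were left out because they name an antisense RNA or pseudogenes.

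Expression was measured on Affymetrix arrays in IMR90 cells, a line of human lung fibroblasts. Cells held the MLP vector alone (vector cells) or a short hairpin named for RB (shRB), for p107 (shp107) or for p130 (shp130), the pocket proteins that restrain E2F target genes. Experiment 1 had 16 groups of 2 arrays, the 4 vectors each in 4 states: growing in medium with 10% serum (FBS), kept in 0.1% serum, grown to confluence, or made senescent with ras. Experiment 2 had 3 groups of 2 arrays, namely vector cells growing or senescent, and shRB cells that were senescent. Whether lines were clones, and how and for how long ras acted, is not given in these sources. Nothing in the labels says that the arrays of a group came from separate cultures, so the spread behind each p-value may be technical.

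Core histones form the protein spool of the nucleosome, and linker histones bind the DNA where it enters and leaves. Most of their genes lie in clusters, are transcribed in S phase, and give messenger RNAs that end in a stem-loop bound by SLBP instead of a poly(A) tail. NPAT, switched on by cyclin E and its kinase, drives their transcription at histone locus bodies. Some of the genes also give polyadenylated RNA, and cells that have left the cycle can hold this form. Labelling for such arrays starts from the poly(A) tail, so the values read mostly polyadenylated histone RNA, not the bulk S phase message.

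All values are on a log2 scale, with array medians between 3.27 and 3.41, and a gene was tested where it exceeded 5 on at least 2 arrays of experiment 1. By this filter 13 of the 46 genes were tested, among 8511 genes in all: H1-2 and H1-10 of the linker histones, H2AC6 and H2AC25, 7 H2B genes (H2BC4, H2BC5, H2BC6, H2BC9, H2BC12, H2BC12L and H2BC21), H3C6 and H4C8. Of these, H2BC4, H2BC6 and H3C6 passed only because of senescent arrays, so their being higher there was in part built into the filter, and counts over the 13 describe genes so selected. H1-10 and H2BC12L, like the untested H1-7 and H1-8, lie on chromosomes 3, 21, 12 and 3, outside the histone clusters. H2BC12, H2BC12L, H2AC6 and H1-10 exceeded 5 on all 32 arrays of experiment 1.

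The other 33 genes stayed near background, with means over the 38 arrays between 2.01 and 3.95. Among linker histones, the highest array value was 3.73 for H1-1, 3.54 for H1-3, 2.58 for H1-4, 2.56 for H1-5, 3.88 for H1-6, 3.52 for H1-7 and 3.07 for H1-8. Among H2A genes it was 3.93 for H2AC4, 4.60 for H2AC8, 4.24 for H2AC14, 3.56 for H2AC15, 3.54 for H2AC16 and 4.66 for H2AC17. None of these probe sets exceeded the filter value of 5 on any array. For H2B genes the highest value was 2.27 for H2BC1, 3.06 for H2BC3, 4.29 for H2BC11, 2.97 for H2BC13, 3.13 for H2BC14, 3.31 for H2BC15 and 2.95 for H2BC17. Among H3 genes it was 2.71 for H3C1, 3.74 for H3C2, 3.0 for H3C3, 2.97 for H3C7, 2.94 for H3C8 and 2.73 for H3C11. For H4 genes it was 3.40 for H4C1, 3.49 for H4C4, 3.45 for H4C5, 2.76 for H4C7, 4.45 for H4C9, 4.82 for H4C11 and 2.98 for H4C13. A low value on these arrays says nothing of untailed message.

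Copies of histone genes are nearly identical, so a probe set may read more than the gene it is annotated to. Of the 13 tested, 4 (H2BC5, H2BC6, H2BC9 and H2BC12L) were read by probe sets whose suffix marks probes that can bind other transcripts, and 3 (H1-10, H2AC6 and H2BC21) by sets meant for a family of transcripts. Values of these 7 genes are uncertain to that extent.

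**Figure D1:**
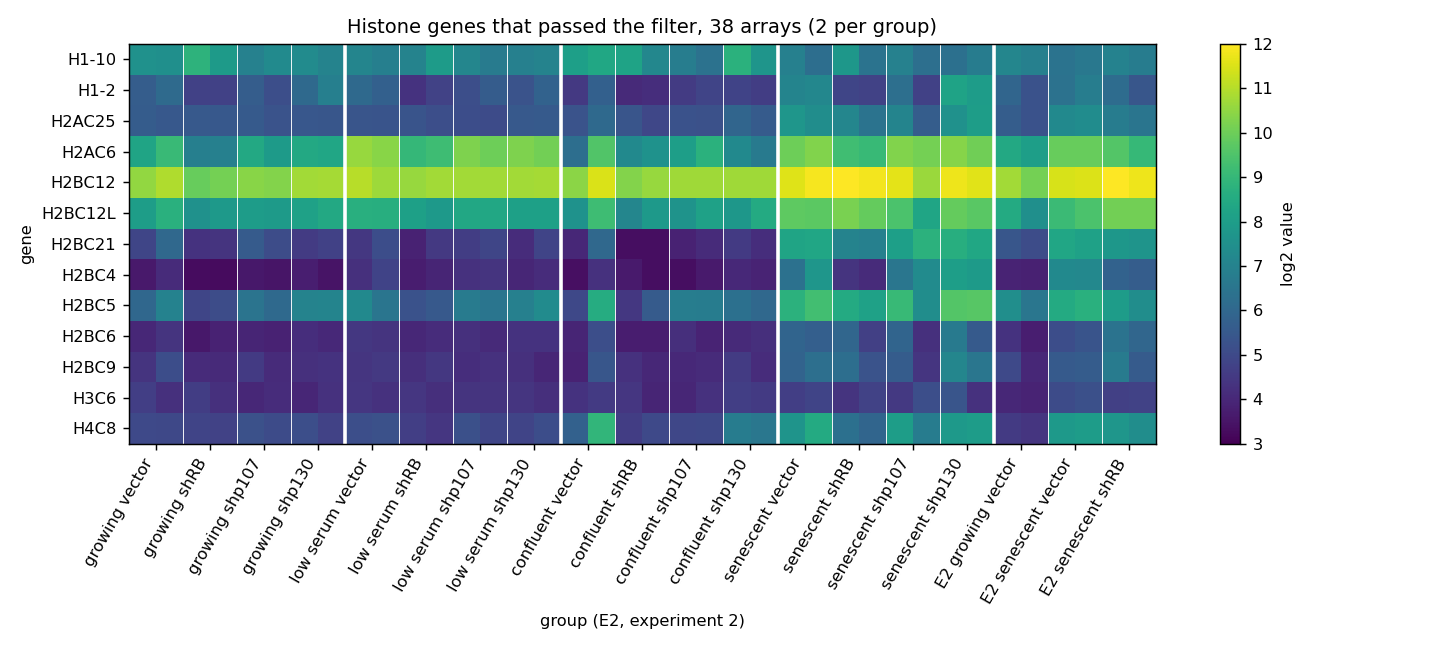
Log2 values of the 13 tested histone genes (vertical axis) on each of the 38 arrays (horizontal axis, 2 columns per group, E2 for experiment 2), with colour from 3 to 12. Colours compare arrays within a gene, not genes with each other. The senescent columns are brighter in most H2B genes, H2AC25 and H4C8, and the 2 confluent vector columns differ from each other.

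As a check of the labels, RB1 was lower in shRB than in vector cells in all 4 states of experiment 1, by −4.05 to −5.32 on the log2 scale, and by −2.28 in experiment 2. RBL2, which encodes p130, was lower with shp130 in all 4 states, by −2.35 to −2.88. RBL1, which encodes p107, was lower by −0.13 to −1.30 with shp107, and passed the test in no state, so it checks that label weakly. All 9 fibroblast markers passed the filter, led by VIM with a mean of 13.03, whereas none of 5 epithelial and 4 measured blood markers did. Of 5 endothelial markers only TEK passed.

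Which histone genes differ between senescent and growing cells was asked first in vector cells. In ras-senescent vector cells 10 of the 13 tested histone genes were called higher than in growing vector cells (adjusted p under 0.05 over all 8511 genes) and none lower. The largest rises were in H2BC4 (9.02-fold), H4C8 (8.68-fold), H2BC21 (7.11-fold), H2BC5 (5.79-fold) and H2AC25 (4.07-fold). The other 5 were H2BC6, H2BC12L, H2BC9, H1-2 and H2BC12, at log2 changes of 1.64, 1.39, 1.34, 1.23 and 0.98. Over all genes tested, 25.4% were called in this comparison, 9.21% as higher and 16.2% as lower. With no filter, 9 of all 46 histone genes were called, all higher, against 10.2% of 19775 genes.

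The median change over the 13 was 1.49, beside −0.10 over all genes tested. With no filter the median over all 46 histone genes was 0.07, beside −0.01 over 19775 genes. Of all called genes, 36.2% were higher, and 48.8% after quantile normalization, which moved the median change of all genes by 0.12. Under that scaling every histone call kept its direction and its side of the threshold. The count of 10 fell to 4 without growing vector replicate 1 and to 5 without senescent vector replicate 2, where the lone array is assumed to vary like the other groups. Without growing vector replicate 1 the changes were 1.0 for H1-2, 0.78 for H2BC12, 1.04 for H2BC12L, 2.04 for H2BC5, 1.46 for H2BC6 and 0.955 for H2BC9. H2BC4, H4C8, H2BC21 and H2AC25 stayed called whichever of the 4 arrays was left out.

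**Figure D2:**
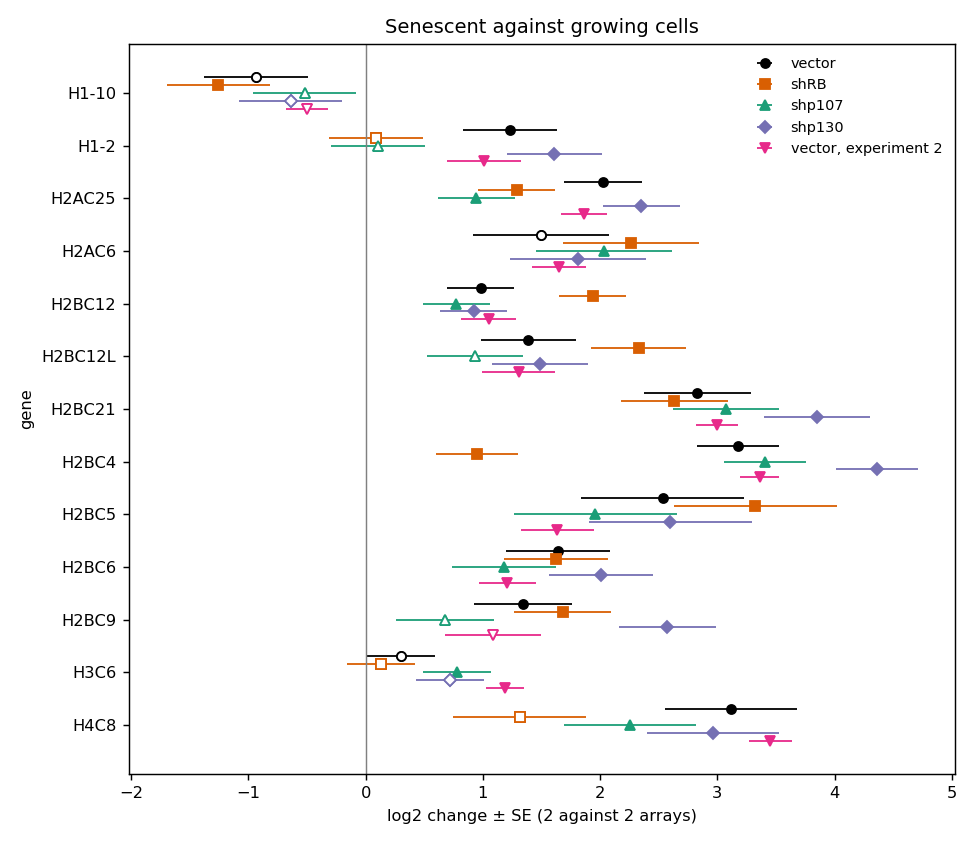
Log2 change ± SE from growing to senescent cells (horizontal axis) for each tested histone gene (vertical axis), in the 4 backgrounds of experiment 1 and in vector cells of experiment 2, 2 against 2 arrays each. Filled symbols passed the test and open ones did not. Except for H1-10, nearly all points lie right of 0, with H2BC21 between 2.63 and 3.85.

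The same comparison was made within each hairpin and in experiment 2, with growing cells of the same kind as controls. In shRB cells 9 of 13 were called higher and 1 lower, against 12.4% of all genes called higher and 20.4% lower. In shp107 cells 9 were called higher, against 17.2%, and in shp130 cells 11, against 12.6%. Of the 9 in shp107 cells, 6 ended without growing shp107 replicate 2, and 5 each without growing or senescent shp107 replicate 1. In shRB cells 4 of 10 calls ended without senescent shRB replicate 1, and in shp130 cells 4 of 11 without growing shp130 replicate 1. In experiment 2, with vector cells of its own, 11 of 13 were called higher, against 18.7%. H2AC25, H2BC4, H2BC5, H2BC6, H2BC12 and H2BC21 were called higher in all 5 comparisons, as were 4.35% of all genes tested. H2BC4 and H2BC6 among them passed the filter only through senescent arrays. With no filter, H2BC21 alone of the 6 kept all 5 calls. H2BC4 then lost its shRB call (adjusted p 0.0726), and H2AC25, H2BC5, H2BC6 and H2BC12 lost their shp107 calls (adjusted p 0.0503, 0.0668, 0.0804 and 0.059). Quantile normalization moved the share of called genes that were higher from 37.9% to 48.1% in shRB and from 38.5% to 50.0% in shp130 cells. With no filter, the histone genes called of 46 numbered 9 in shRB, 5 in shp107, 13 in shp130 and 16 in experiment 2, against 14.6%, 16.5%, 14.5% and 22.5% of all genes. These counts include dim genes, among them H4C11, lower by −0.73 in shp107 cells, and H2AC8, higher by 0.97 in experiment 2.

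Sequences upstream of the genes whose senescent rise or shRB difference is described most fully are shown here, because they differ in the promoter elements that histone genes are known for. Each is the 250 bases before the annotated start from RefSeq (GRCh38.p14), read 5′ to 3′ on the gene's strand. Capitals mark matches, on either strand, to the letters CCAAT, to the octamer ATTTGCAT bound by OCT1, to TATAAA, or to 3 forms of the E2F site (TTTGGCGC, TTTCGCGC, TTTCCCGC). H2BC4 lies at chr6:26123927-26124176 on the minus strand, H2BC21 at chr1:149886683-149886932 on the minus strand, H1-2 at chr6:26056471-26056720 on the minus strand and H4C8 at chr6:26285535-26285784 on the minus strand.
H2BC4: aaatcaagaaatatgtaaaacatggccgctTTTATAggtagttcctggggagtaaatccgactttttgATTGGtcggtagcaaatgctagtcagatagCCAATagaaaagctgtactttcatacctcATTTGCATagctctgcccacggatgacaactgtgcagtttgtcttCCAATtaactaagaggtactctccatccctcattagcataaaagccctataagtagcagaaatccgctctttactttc
H2BC21: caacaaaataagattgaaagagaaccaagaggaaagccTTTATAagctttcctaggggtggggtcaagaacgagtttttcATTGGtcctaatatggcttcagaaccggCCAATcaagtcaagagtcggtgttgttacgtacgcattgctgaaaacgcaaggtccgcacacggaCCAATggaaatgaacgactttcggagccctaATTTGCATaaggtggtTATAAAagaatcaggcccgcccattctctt
H1-2: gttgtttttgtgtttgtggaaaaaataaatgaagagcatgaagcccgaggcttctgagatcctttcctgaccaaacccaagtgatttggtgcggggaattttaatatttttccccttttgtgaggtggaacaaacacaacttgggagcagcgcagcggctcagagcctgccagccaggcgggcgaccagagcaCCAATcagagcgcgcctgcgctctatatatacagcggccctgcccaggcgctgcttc
H4C8: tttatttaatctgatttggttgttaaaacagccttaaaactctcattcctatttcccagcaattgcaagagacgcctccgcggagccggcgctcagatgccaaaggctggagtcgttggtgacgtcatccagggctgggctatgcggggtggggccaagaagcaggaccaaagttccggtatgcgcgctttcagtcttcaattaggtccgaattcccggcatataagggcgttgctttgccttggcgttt

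The H2BC4 window held CCAAT 3 times and the octamer and TATAAA once each, and that of H2BC21 held CCAAT 3 times, the octamer once and TATAAA 2 times. The H2BC4 match to TATAAA was on the opposite strand (TTTATA), near the end of the window farthest from the H2BC4 start. The first of the H2BC21 matches to TATAAA lay in the same way, and the other was near the H2BC21 start. In the H1-2 window the only match was 1 CCAAT, and H4C8 had none. Promoters were found for 43 of the 46 genes, 12 of them tested (H2BC12L was not matched). CCAAT was in 86% of the 43, against 33% of all 27305 promoters, the octamer in 37.2% against 1.66%, TATAAA in 65.1% against 11.1%, and the E2F letters in 23.3% against 2.38%. Among the 12 tested genes, only H2BC12 held the E2F letters (8.33%), and 6 held the octamer (50%), 5 of them H2B genes. Among the 31 untested genes these shares were 29% and 32.3%. Within H2B genes the octamer was in 83.3% of those tested and 71.4% of those not tested. A match is a run of letters, and its absence says only that these letters are not in the window.

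H2BC4 and H2AC6 are neighbours read in opposite directions from starts 246 bases apart, so the H2BC4 window above spans the stretch between them. H2BC21 stands in the same way 236 bases from H2AC20, which has no probe set of its own here. In all, 14 of 43 genes had another histone gene starting in the opposite direction within 500 bases.

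H2BC21, an H2B gene on chromosome 1, was the tested histone gene with the cleanest separation of states. Growing vector arrays read 4.89 and 6.03 and senescent vector arrays 8.26 and 8.31, a change of 2.83 ± 0.45 (SE, n = 2 against 2; adjusted p 7.74e-05). In experiment 2 growing arrays read 5.39 and 5.10 and senescent arrays 8.32 and 8.17 (2.99 ± 0.18, adjusted p 4.75e-06). Its lowest senescent value on any array was above its highest value in any other state. Senescent arrays read 7.01 and 6.93 with shRB, 8.08 and 8.77 with shp107, and 8.64 and 8.35 with shp130, against 4.32 and 4.36, 5.60 and 5.11, and 4.57 and 4.73 in the growing cells. Over the 12 senescent arrays the values ran from 6.93 to 8.77, and over the 26 others from 3.35 to 6.03. Only 2.89% of all genes tested had every senescent array above every other array, and no other tested histone gene did.

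H2BC4, an H2B gene of the chromosome 6 cluster, rose from near background. Growing vector arrays read 3.63 and 4.11 and senescent vector arrays 6.35 and 7.74, a change of 3.17 ± 0.35 (adjusted p 7.8e-07). Experiment 2 gave 3.91 and 3.83 in growing and 7.28 and 7.19 in senescent cells (3.36 ± 0.17, adjusted p 2e-06). Arrays of these states did not overlap in either experiment. In experiment 1 this was in part built into the filter, which H2BC4 passed only through senescent arrays. The rise was 3.40 ± 0.35 in shp107 cells, where senescent arrays read 6.54 and 7.35, and 4.36 ± 0.35 in shp130 cells, where they read 8.03 and 7.90. In shRB cells senescent arrays read 4.36 and 4.11 against 3.30 and 3.28 in growing cells, a rise of 0.95 ± 0.35 (adjusted p 0.0417) whose call ended without any 1 of its 4 arrays. That low pair in shRB cells is taken up below with the RB comparison.

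H4C8, which encodes the invariant histone H4, read 4.99 and 4.94 in growing and 7.67 and 8.49 in senescent vector cells (3.12 ± 0.56, adjusted p 0.000295). Experiment 2 gave 4.52 and 4.38 against 7.82 and 7.99 (3.45 ± 0.18, adjusted p 2.66e-06). Arrays did not overlap in either experiment. With shp107 the senescent arrays read 8.01 and 6.77 (2.25 ± 0.56 above growing cells, adjusted p 0.00338), a call that ended at 1.63 without senescent shp107 replicate 1. With shp130 they read 7.88 and 7.98 (2.96 ± 0.56), and with shRB 6.33 and 5.92, where the change of 1.31 ± 0.56 did not pass (adjusted p 0.0806). A second H4C8 probe set changed by 3.14 in vector, 0.84 in shRB, 3.09 in shp107, 2.83 in shp130 and 3.19 in experiment 2 cells. On the first probe set the change in shRB cells differed from that in vector cells by −1.80 ± 0.80, which did not pass (adjusted p 0.364).

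H2AC25, an H2A gene on chromosome 1, read 5.62 and 5.47 in growing and 7.73 and 7.40 in senescent vector cells (2.02 ± 0.33, adjusted p 9.2e-05). In experiment 2 it read 5.65 and 5.27 against 7.27 and 7.38 (1.86 ± 0.20, adjusted p 0.000146). Both senescent pairs lay above both growing pairs. The change was 2.35 ± 0.33 with shp130, 1.29 ± 0.33 with shRB and 0.95 ± 0.33 with shp107, and the last fell to 0.24 without senescent shp107 replicate 1. Its second probe set was dim, between 2.14 and 2.90 on all arrays, and read no such change.

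H2BC5 read 6.0 and 6.99 in growing and 8.77 and 9.29 in senescent vector cells (2.53 ± 0.70, adjusted p 0.00997). In experiment 2 the arrays read 7.44 and 6.53 against 8.51 and 8.72 (1.63 ± 0.31, adjusted p 0.00362). Its rise was 3.32 ± 0.70 with shRB, where growing cells read 4.90 and 5.09 and senescent cells 8.49 and 8.15. It was 2.60 ± 0.70 with shp130, where growing cells read 7.01 and 7.06 and senescent cells 9.60 and 9.66. With shp107 it was 1.96 ± 0.70 and fell to 1.14 without senescent shp107 replicate 1. A second probe set rose by less, 1.34 in vector and 1.49 in shRB cells.

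H2BC12, read at 10.54 and 10.94 in growing and 11.57 and 11.88 in senescent vector cells, rose by 0.98 ± 0.28 (adjusted p 0.014). With shRB it rose by 1.94 ± 0.28, from 9.89 and 10.13 to 12.07 and 11.83 (adjusted p 1.78e-05). H2BC12L, the copy on chromosome 21, rose by 1.39 ± 0.41 in vector cells (8.02 and 8.71 to 9.78 and 9.73) and by 2.33 ± 0.41 in shRB cells (7.54 and 7.87 to 10.20 and 9.86). For both genes the senescent arrays of vector and shRB cells lay above the growing ones. In experiment 2 H2BC12 rose by 1.05 ± 0.23 and H2BC12L by 1.31 ± 0.31. Both experiment 2 calls ended without senescent vector replicate 2. The H2BC12 call in shp107 cells, 0.77, fell to 0.29 without senescent shp107 replicate 1. In shp130 cells H2BC12 rose by 0.92 and H2BC12L by 1.49, calls that ended without senescent shp130 replicate 1 and with some others left out (down to 0.84 and 1.34).

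H2BC6 and H2BC9 changed from low levels. H2BC6 read 3.99 and 4.35 in growing and 5.90 and 5.71 in senescent vector cells (1.64 ± 0.44, adjusted p 0.00894), and 4.30 and 3.74 against 5.14 and 5.32 in experiment 2 (1.21 ± 0.24). H2BC9 read 4.35 and 5.12 against 5.87 and 6.28 (1.34 ± 0.42, adjusted p 0.0215), and in experiment 2 its change of 1.09 ± 0.41 did not pass (adjusted p 0.066). The steepest change of each was in shp130 cells, at 2.01 ± 0.44 for H2BC6, from 4.16 and 4.05 to 6.67 and 5.57, and 2.57 ± 0.42 for H2BC9, from 4.23 and 4.31 to 7.14 and 6.54. In shRB cells H2BC6 rose by 1.62 and H2BC9 by 1.68, values that fell to 0.98 and 1.20 without senescent shRB replicate 1. In shp107 cells the H2BC6 rise of 1.18 fell to 0.36 without senescent shp107 replicate 1.

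H2AC6, the neighbour of H2BC4, read 8.24 and 9.08 in growing and 10.02 and 10.28 in senescent vector cells, a difference of 1.49 ± 0.58 that did not pass (adjusted p 0.0649). It passed in experiment 2, from 8.44 and 8.05 to 9.90 and 9.89 (1.65 ± 0.23, adjusted p 0.000709), and with shRB (2.26 ± 0.58), shp107 (2.03 ± 0.58) and shp130 (1.81 ± 0.58). The shp107 call ended, at 1.76, without growing shp107 replicate 2, and the shp130 call without any 1 of its 4 arrays. The growing and senescent arrays were apart in each of these. H3C6, the only tested H3 gene, stayed near its filter value. It was called in shp107 cells (0.78 ± 0.29, ending at 0.44 without senescent shp107 replicate 2) and in experiment 2, from 4.0 and 3.89 to 5.06 and 5.20 (1.19 ± 0.16, adjusted p 0.000655). In senescent vector cells of experiment 1 it read 4.68 and 4.84 against 4.67 and 4.25, which did not pass (adjusted p 0.497), and its second probe set was dim.

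The linker histones differed from each other. H1-2, a clustered H1 gene, read 5.65 and 6.11 in growing and 7.06 and 7.15 in senescent vector cells (1.23 ± 0.40, adjusted p 0.0284), and 5.93 and 5.26 against 6.40 and 6.82 in experiment 2 (1.01 ± 0.32, adjusted p 0.0338). In shp130 cells it went from 6.07 and 6.89 to 8.21 and 7.97 (1.61 ± 0.40, adjusted p 0.00394). The vector call ended without any 1 of its 4 arrays and with no filter (adjusted p 0.0568). The experiment 2 call ended without any 1 of 3 of its 4 arrays, at 0.68 without growing replicate 2, and the shp130 call, at 1.20, without growing shp130 replicate 1. Senescent arrays were higher in all 3 pairs of groups. In shRB cells it read 4.88 and 4.77 when senescent and 4.72 and 4.75 when growing (0.09 ± 0.40), and in shp107 cells 6.29 and 4.75 against 5.66 and 5.17 (0.10 ± 0.40), neither of which passed. H1-10, a solitary gene for a linker histone made outside S phase, was lower in senescent than in growing cells by estimate in all 5 comparisons. Only the shRB change passed, from 8.82 and 7.90 to 7.77 and 6.43 (−1.26 ± 0.44, adjusted p 0.0328), and it was −0.58 without senescent shRB replicate 2. This call ended also without growing shRB replicate 1, with only the groups compared and with no filter (adjusted p 0.0634). In vector cells it read 7.57 and 7.47 against 6.91 and 6.27 (−0.93 ± 0.44, adjusted p 0.133). Its experiment 2 values were 7.12 and 6.91 against 6.42 and 6.60 (−0.50 ± 0.18, adjusted p 0.0549), which passed with no filter (adjusted p 0.043).

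**Figure D3:**
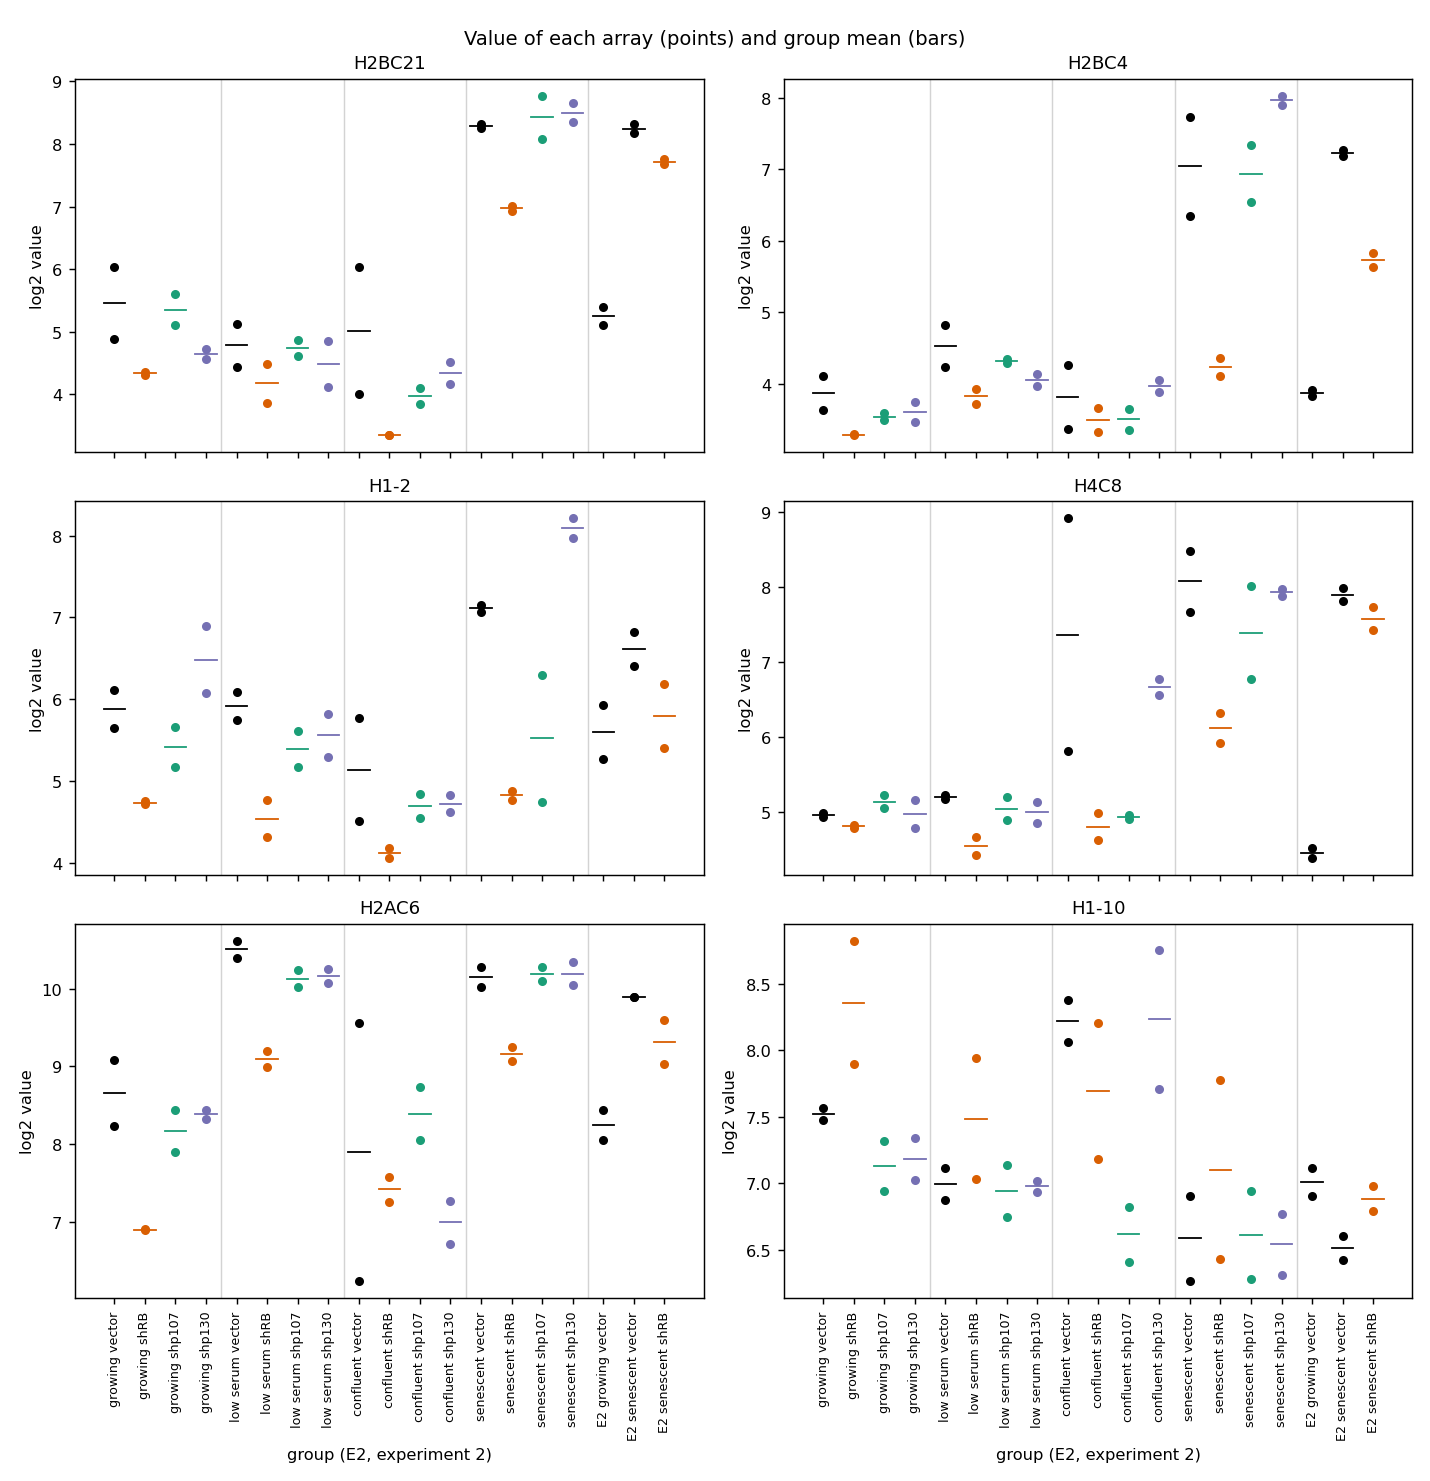
Log2 value of each array (points) and the mean of the 2 arrays (bars) for 6 histone genes (panels) over the 19 groups (horizontal axis, E2 for experiment 2); vertical axes start near each gene's lowest value. H2BC21 is high on every senescent array, H2BC4 is low in senescent shRB cells of experiment 1, and H2AC6 is high in low serum and in senescence.

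Expression of S phase genes went the other way in the same arrays. Of 26 genes listed for S phase (replication licensing, forks, nucleotide supply), 23 were tested, and 19 of them fell in senescent vector cells with a list median of −2.00, led by TYMS (−3.93 ± 0.32), TK1 (−3.55 ± 0.39) and UHRF1 (−3.53 ± 0.48). In experiment 2 all 23 fell, with a median of −2.56. The mean over the list was 7.74 and 7.88 on the growing and 5.54 and 5.80 on the senescent vector arrays. With shp107 22 fell (median −2.38) and with shp130 20 (median −2.22), against 21% and 20.1% of all genes. In shRB cells only 9 were lower in senescence and 1 was higher (median −0.44), against 20.4% and 12.4% of all genes. The list mean in shRB cells was 8.68 and 8.65 on the growing and 8.17 and 7.59 on the senescent arrays. Fibroblast markers moved too, with 6 of 9 lower in senescent vector cells and 8 of 9 in experiment 2, and a summed level of 83.3 to 104 over the 38 arrays, and their part in the histone values was not tested. Fewer cells with a given RNA and less of it per cell cannot be told apart in such bulk samples.

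Among 11 listed histone variants, 6 were tested, and none was called higher in senescent vector cells, against 9.21% of all genes. H2AX, the variant phosphorylated at DNA breaks, fell by 0.79 ± 0.25 (adjusted p 0.0238), and MACROH2A2 by 0.75 ± 0.23 (adjusted p 0.0181). In experiment 2 H2AX fell by 1.0 ± 0.17, H2AZ2 by 0.86 ± 0.21 and H2AZ1 by 0.49 ± 0.17. Of 20 histone chaperones, 16 were tested and 2 fell in vector cells, against 16.2% of all genes called lower. They were NASP, which carries H3 and H4, by 0.84 ± 0.28 and HJURP, the chaperone of CENPA, by 1.15 ± 0.31. In experiment 2 7 fell and 1 rose, against 20.6% and 18.7% of all genes called lower and higher. HJURP was lower by −2.97 ± 0.19, NASP by −1.63 ± 0.17 and HAT1, which acetylates new H4, by −1.13 ± 0.20. UBN1, of a complex that deposits the variant H3.3, was higher by 0.77 ± 0.25.

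Of 19 listed factors of histone transcription and 3′ end processing, 15 were tested. In senescent vector cells of experiment 1 limma called 0 (2 at an unadjusted p under 0.05), against 25.4% of all genes, with a list median of −0.15. From growing to senescent cells 1 was higher with shRB, against 12.4% of all genes. With shp107 4 were higher and 2 lower, against 17.2% and 21%, and with shp130 2 were lower, against 20.1%. SLBP read 10.28 and 10.41 in growing and 9.78 and 10.14 in senescent vector cells, and NPAT 5.22 and 5.80 against 5.18 and 5.30; neither passed (adjusted p 0.14 and 0.65). In experiment 2 SLBP read 10.17 and 10.15 against 10.14 and 10.15. NPAT fell there by 0.64 ± 0.22 (adjusted p 0.0453), LSM11, a subunit of the U7 particle, by 0.72 ± 0.18, and CASP8AP2, a histone locus body protein, by 1.49 ± 0.17.

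Whether other ways of leaving the cycle differ from growth in the same way was asked with low serum and confluent cells, which share the growing vector arrays with the senescent comparison. In low serum 1 of 13 histone genes was called in vector cells, H2AC6, against 13% of all genes (6.69% higher and 6.36% lower), and with no filter 0 of 46 were (3 at an unadjusted p under 0.05). H2AC6 read 8.24 and 9.08 in growing and 10.62 and 10.41 in low serum vector cells (1.85 ± 0.58, adjusted p 0.0388). Its low serum arrays lay above the growing ones in all 4 backgrounds. The change was 2.20 ± 0.58 with shRB (6.89 and 6.91 to 9.0 and 9.20, adjusted p 0.0246), 1.96 ± 0.58 with shp107 (8.44 and 7.90 to 10.24 and 10.02, adjusted p 0.0443) and 1.79 ± 0.58 with shp130 (adjusted p 0.0558, not passed). Each of the 3 calls ended when any 1 of its 4 arrays was left out, with changes in vector cells then from 1.43 to 2.27 and adjusted p up to 0.238.

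H2AC6 was the sole histone gene called in low serum in shRB cells, against 6.43% of all genes, and in shp107 cells, against 6.8% (3.44% lower). In shp130 cells 0 were called, against 9.8% (4.71% higher), with 2 at an unadjusted p under 0.05. H2BC4, its neighbour across the shared promoter, changed by 0.66 ± 0.35 in low serum vector cells (3.63 and 4.11 to 4.24 and 4.82, adjusted p 0.225). Of the S phase list, 13 of 23 fell in low serum vector cells, with a median of −1.25, and 17 of 23 at confluence, with a median of −1.38. H2AX fell by 1.11 in low serum and by 1.10 at confluence. No histone transcription or 3′ end factor was called by limma in low serum (1 at an unadjusted p under 0.05), and at confluence CPSF3 rose by 0.66 and NCBP1 fell by 0.85, in vector cells.

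At confluence 1 of 13 histone genes was called in vector cells, H4C8, against 25.1% of all genes. H4C8 read 5.81 and 8.92 in the confluent and 4.99 and 4.94 in the growing vector arrays (2.40 ± 0.56, adjusted p 0.00368). Without confluent vector replicate 2 the H4C8 change was 0.85 and the call ended. Confluent vector arrays stood further apart than those of any other group, with an SD of 0.794 for the difference over genes. All 13 histone genes were higher on confluent vector replicate 2 than on replicate 1, and 9 were more than 1 log2 unit higher, against 13.6% of all genes tested that far apart in either direction. H2BC5 read 4.96 and 8.58 there, H2AC6 6.24 and 9.56, H2BC21 4.01 and 6.03 and H2BC12L 7.58 and 9.19. On replicate 1 each of these lay below both growing vector arrays. On replicate 2 H2BC5, H2AC6 and H2BC12L lay above both, so the direction of their change depended on the array. The S phase list mean was 6.23 and 6.11 on the same arrays. Senescent shp107 arrays were the next most uneven, with 7 of 13 histone genes more than 1 unit apart, against 12.2% of all genes.

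In the other backgrounds confluent cells gave 0 calls with shRB, against 11.1% of all genes (3.04% higher and 8.04% lower), and 0 with shp107, against 8.15%, each with 1 histone gene at an unadjusted p under 0.05. With shp130 there were 2 calls, against 18.6% (8.19% higher and 10.4% lower). H4C8 rose there from 5.15 and 4.79 to 6.78 and 6.56 (1.70 ± 0.56, adjusted p 0.0405), a call that ended without any 1 of the 4 arrays. H1-2 fell from 6.07 and 6.89 to 4.83 and 4.62 (−1.76 ± 0.40, adjusted p 0.00399), and its call ended, at −1.35, without growing shp130 replicate 2. By group means H4C8 was higher at confluence in vector and shp130 cells, though the vector mean rested largely on replicate 2. It was not higher in confluent shRB (4.63 and 4.99) or shp107 cells (4.90 and 4.97). In vector cells H1-2 read 6.09 and 5.75 in low serum and 4.51 and 5.77 at confluence, and H1-10 7.11 and 6.87 in low serum and 8.07 and 8.38 at confluence, none of which passed against growing cells.

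Senescent vector cells were also set against the other arrested vector cells. Against low serum 10 of 13 histone genes were called, all higher, with 15.2% of all genes called higher. Of these calls, H1-2, H2BC5, H2BC6, H2BC12 and H2BC12L ended without low serum vector replicate 2, which left 5, and 4 of them without senescent vector replicate 2, which left 6. The share of called genes that were higher went from 39.0% to 51.2% under quantile normalization. H2BC21 rose most (3.50 ± 0.45, from 4.44 and 5.12), then H4C8 (2.88 ± 0.56, from 5.17 and 5.23) and H2BC4 (2.51 ± 0.35, from 4.24 and 4.82). H2AC6 did not pass (−0.36 ± 0.58), being high in both states. Against confluent cells 10 were called higher, with 14.6% of all genes, and H1-10 lower, from 8.07 and 8.38 to 6.91 and 6.27 (−1.64 ± 0.44, adjusted p 0.00707). H1-10 lost its call without confluent vector replicate 2 or senescent vector replicate 2, at −1.32 to −1.96 over the arrays left out. H4C8 did not pass against confluent cells (0.71 ± 0.56), and the H2AC6, H2BC5, H2BC6, H2BC9, H2BC12 and H2BC12L calls ended without confluent vector replicate 1, at 0.59, 0.45, 0.63, 0.67, 0.22 and 0.56. Without senescent vector replicate 2 the H1-10, H2BC5, H2BC6, H2BC9, H2BC12 and H2BC12L calls ended, so either array left 5 of the 11.

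The role of RB was addressed by setting shRB against vector cells within each state. In growing and low serum cells 0 of 13 histone genes were called, as were 0.188% (0.106% lower) and 0.0822% of all genes, and 5 and 3 were at an unadjusted p under 0.05. At confluence 2 were called, both lower with shRB, against 10.5% of all genes called lower. The share of called genes that were higher at confluence went from 40.1% to 50.3% under quantile normalization. In senescent cells 3 were called, all lower, against 3.77% of all genes called lower. In senescent cells of experiment 2 2 were called lower and 1 higher, against 9.24% and 10.9% of all genes.

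By estimate, 10 of the 13 histone genes were lower with shRB in all 4 states of experiment 1, as were 13.7% of all genes tested. The median over the 13 was −0.64 in growing, −0.61 in low serum, −0.56 in confluent and −0.71 in senescent cells. Against the same vector arrays it was, in that order, −0.37, −0.23, −0.45 and −0.68 with shp107. With shp130 it was −0.11, −0.20, −0.29 and 0.21. Medians over all genes tested lay between −0.07 and 0.11. Lower estimates were thus not particular to shRB, and the part of the shared vector arrays was not tested. Both shRB arrays lay below both vector arrays for 10 of 13 in growing, 7 in low serum, 4 in confluent and 7 in senescent cells, against 17.8%, 19.5%, 30% and 27.8% of all genes. H1-2 and H4C8 did so in all 4 states, as did 1.39% of all genes tested. In growing cells H2AC6 differed most, at 6.89 and 6.91 against 8.24 and 9.08 (−1.76 ± 0.58, adjusted p 0.371), followed by H2BC5 at 4.90 and 5.09 against 6.0 and 6.99 (−1.50 ± 0.70, adjusted p 0.758). Neither passed over all genes.

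**Figure D4:**
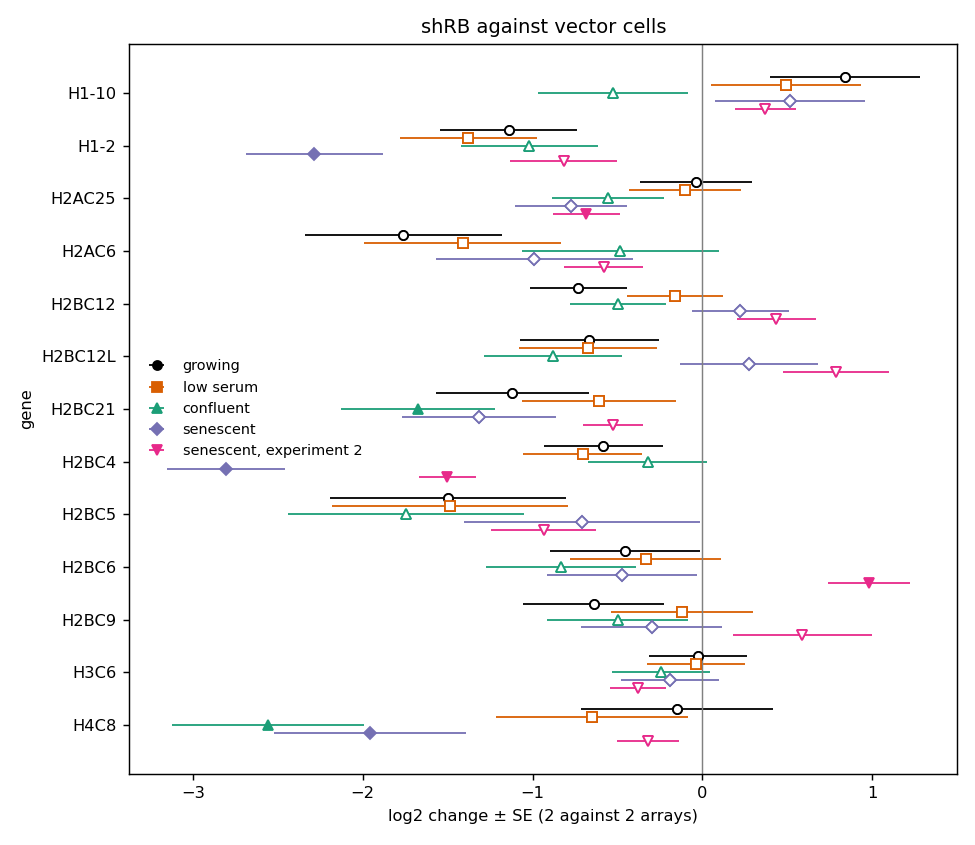
Log2 difference ± SE of shRB from vector cells (horizontal axis) for each tested histone gene (vertical axis) in the 4 states of experiment 1 and in senescent cells of experiment 2, 2 against 2 arrays each. Filled symbols passed the test and open ones did not. Most points lie left of 0, and the farthest left is H2BC4 in senescent cells at −2.81.

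H2BC4 had the largest RB difference of the tested histone genes. In senescent cells shRB arrays read 4.36 and 4.11 and vector arrays 6.35 and 7.74 (−2.81 ± 0.35, adjusted p 1.31e-05). In experiment 2 they read 5.82 and 5.64 against 7.28 and 7.19 (−1.50 ± 0.17, adjusted p 0.000986). The 2 experiments had the same direction with no overlap, and both calls held without any 1 array, from −3.50 to −2.11 in experiment 1. In growing cells the difference was −0.58 ± 0.35, in low serum −0.71 ± 0.35 and at confluence −0.32 ± 0.35, none of which passed. The difference between the senescent and the growing effect was −2.22 ± 0.49 (adjusted p 0.0185), and between the senescent and the low serum effect −2.10 ± 0.49 (adjusted p 0.0287), with 1.99% and 1.75% of all genes called. The first call ended without any 1 of 5 of its 8 arrays and the second without any 1 of 6, at −1.53 and −1.41 without senescent vector replicate 2. Both also ended with only the groups compared, and the second with no filter (adjusted p 0.0522). H2BC4 passed the filter only through senescent arrays, those of vector, shp107 and shp130 cells, and its values in growing and low serum cells were near background. Its being lower in senescent shRB than in senescent vector cells of experiment 1 was thus in part built into the filter. That call held with no filter.

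H1-2 read 4.88 and 4.77 in senescent shRB and 7.06 and 7.15 in senescent vector cells, a difference of −2.29 ± 0.40 (adjusted p 0.000654) that held without any 1 array. In experiment 2 the arrays read 6.19 and 5.40 against 6.40 and 6.82, and −0.82 ± 0.32 did not pass (adjusted p 0.101). The pairs did not overlap in either experiment. In the other states it was lower with shRB by −1.14 ± 0.40 in growing, −1.38 ± 0.40 in low serum and −1.02 ± 0.40 in confluent cells, with adjusted p of 0.468, 0.275 and 0.0871. Its effect in senescent cells differed from that in growing cells by −1.15 ± 0.57, which did not pass (adjusted p 0.445).

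H4C8 was lower with shRB in senescent cells of experiment 1, at 6.33 and 5.92 against 7.67 and 8.49 (−1.96 ± 0.56, adjusted p 0.0298). The call ended without senescent vector replicate 2 or either shRB array, at −1.55 to −2.36, and with no filter. In experiment 2 H4C8 read 7.74 and 7.43 against 7.82 and 7.99 (−0.32 ± 0.18, adjusted p 0.247). At confluence it read 4.63 and 4.99 against 5.81 and 8.92 (−2.56 ± 0.56, adjusted p 0.00301), and without confluent vector replicate 2 the difference was −1.0 and the call ended. H2BC21 at confluence, 3.35 on both shRB arrays against 4.01 and 6.03 (−1.67 ± 0.45, adjusted p 0.0134), fell to −0.66 without the same array. It too lost its call without either confluent shRB array, and its senescent difference of −1.31 ± 0.45 did not pass (adjusted p 0.0753).

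In experiment 2 H2AC25 was lower with shRB, at 6.79 and 6.49 against 7.27 and 7.38 (−0.68 ± 0.20, adjusted p 0.0442), and H2BC6 higher, at 6.44 and 5.98 against 5.14 and 5.32 (0.98 ± 0.24, adjusted p 0.0258). The H2AC25 call ended without any 1 of its 4 arrays and the H2BC6 call without 3 of them. In experiment 1 the same differences were −0.78 ± 0.33 (adjusted p 0.163) and −0.47 ± 0.44 (adjusted p 0.609), so H2BC6 had opposite signs in the 2 experiments. H2BC12 and H2BC12L were not lower with shRB in senescent cells, with differences of 0.22 ± 0.28 and 0.27 ± 0.41 in experiment 1 and 0.44 ± 0.23 and 0.79 ± 0.31 in experiment 2, none past the test. RB1 itself read 4.49 and 3.64 in senescent shRB cells of experiment 1 and 6.64 and 7.08 in those of experiment 2, and its part in the difference between experiments was not tested.

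S phase genes were higher in the same senescent shRB cells. Of 23 tested, 16 rose against vector cells, with a median of 2.16, led by CCNE2 (5.10 ± 0.42), TYMS (4.31 ± 0.32) and RFC4 (4.06 ± 0.39), and 21 rose in experiment 2, with a median of 2.05. The list mean was 8.17 and 7.59 on senescent shRB and 5.54 and 5.80 on senescent vector arrays. Histone genes that were lower with shRB and S phase genes that were higher thus lay on the same arrays, and the part of one in the other was not tested. In growing and low serum cells 1 S phase gene rose in each (CCNE2 by 2.15 and MCM6 by 1.62), and at confluence 7. Of 9 fibroblast markers, 1 was lower with shRB in senescent cells of experiment 1, and 3 were higher and 1 lower in experiment 2.

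Among factors that make histone RNA, 3 of 15 tested were higher in senescent shRB cells in each experiment. Of all genes, 5.98% and 10.9% were called higher, and the list medians were 0.02 and 0.01. SLBP read 11.14 and 11.15 in senescent shRB against 9.78 and 10.14 in senescent vector cells (1.18 ± 0.18, adjusted p 0.000168), and 10.81 and 10.89 against 10.14 and 10.15 in experiment 2 (0.71 ± 0.16, adjusted p 0.0184). NPAT read 7.08 and 6.01 against 5.18 and 5.30 (1.30 ± 0.37, adjusted p 0.0257), and 6.52 and 6.95 against 5.06 and 5.15 in experiment 2 (1.64 ± 0.22, adjusted p 0.00216). In both experiments neither gene's arrays overlapped. CASP8AP2, the third of them, rose by 1.93 ± 0.53 and 2.31 ± 0.17. Of 16 chaperones, 5 rose in experiment 1 and 6 in experiment 2, against 5.98% and 10.9% of all genes called higher. In experiment 2 1 fell, against 9.24% called lower. NASP rose by 2.26 ± 0.28 and 1.73 ± 0.17, HAT1 by 1.49 ± 0.24 and 1.38 ± 0.20, and RBBP4, shared by several histone-binding complexes, by 1.35 ± 0.31 and 1.40 ± 0.16. UBN1 fell by 1.59 ± 0.25 in experiment 2. Of the 6 variants limma called 0 in experiment 1 (0 at an unadjusted p under 0.05), and H2AZ2 rose by 0.83 ± 0.21 in experiment 2.

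Hairpins against the other pocket proteins were compared with the same vector arrays as shRB. With shp130 0 of 13 histone genes were called in any state, against 0.0587% of all genes in growing, 0.27% in low serum, 0.0235% in confluent and 1.67% in senescent cells. At an unadjusted p under 0.05 there were 2 in senescent cells and 0 in the other states. In senescent shp130 cells H2BC4 read 8.03 and 7.90, above both vector arrays (0.92 ± 0.35, adjusted p 0.236), and H1-2 read 8.21 and 7.97, also above both (0.98 ± 0.40, adjusted p 0.298). These are the genes that were lowest with shRB, and neither difference from vector passed.

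With shp107 0 were called in growing and low serum cells, against 0% and 0.0352% of all genes, and 0 were at an unadjusted p under 0.05. At confluence 2 were lower, against 6.17% of all genes, namely H4C8 (4.90 and 4.97 against 5.81 and 8.92; −2.43 ± 0.56, adjusted p 0.00497) and H1-10 (6.82 and 6.41 against 8.07 and 8.38; −1.61 ± 0.44, adjusted p 0.0163). Without confluent vector replicate 2 the H4C8 difference was −0.88 and neither call remained; the H1-10 call also ended, at −1.40, without confluent shp107 replicate 2. In senescent cells 2 were lower, against 5.1%, namely H1-2 (6.29 and 4.75 against 7.06 and 7.15; −1.59 ± 0.40, adjusted p 0.0167) and H2AC25 (7.06 and 5.66 against 7.73 and 7.40; −1.20 ± 0.33, adjusted p 0.0262). Both rested on senescent shp107 replicate 2, without which they were −0.82 and −0.50, and each also ended without either senescent vector array. H2BC4 did not differ by the test in senescent shp107 cells, at 6.54 and 7.35 (−0.10 ± 0.35, adjusted p 0.912).

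Histone probe sets annotated to several genes were outside the rule, but 19 histone genes were read only by these. There were 20, of which 8 passed the filter, and they are described without a test. From growing to senescent vector cells 7 of the 8 rose and 1 fell, and the same held in experiment 2. The sets of H2BC8 and H2BC11, and those of 5 H2B genes, exceeded 5 on only 5 to 8 of the 32 arrays of experiment 1. A rise of these sets in senescence may thus be in part built into the filter. A probe set for H2BC8 and H2BC11 read 3.54 and 3.94 in growing, 6.74 and 7.71 in senescent vector, and 4.15 and 3.68 in senescent shRB cells. In experiment 2 it read 4.24 and 3.99, 7.36 and 7.51, and 5.25 and 4.89 in these groups. As for H2BC4, senescent shRB arrays of this set were below senescent vector arrays in both experiments. Another set of these genes differed by −1.11 and −0.93 in experiments 1 and 2. The sets of 5 H2B genes, which include H2BC4, were not alike, at −2.21 and −1.34, 0.09 and 0.63, and −0.08 and −0.13. Of the rest that passed the filter, the set of 14 H4 genes differed by 0.33 and 0.55. Those of H2AC18 and H2AC19 differed by −0.25 and −0.07, and by 0.05 and −0.46.

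One probe set of H2AC18 and H2AC19, neighbouring copies of an H2A gene, separated low serum from senescence. It read 8.24 and 8.76 in growing, 5.91 and 5.53 in low serum and 11.23 and 10.94 in senescent vector cells, and the low serum arrays were the lowest of the vector arrays. With shRB the senescent arrays read 11.21 and 10.46, overlapping those of vector cells. H2AC6, by contrast, was high in both states. The single probe set that fell is annotated to 14 H4 genes. It read 9.75 and 9.74 in growing, 8.46 and 8.64 in low serum and 9.07 and 7.70 in senescent vector cells, and in experiment 2 9.91 and 9.84 in growing and 7.11 and 7.59 in senescent cells. It was lowest in senescent shp107 cells, at 5.92 and 6.80. H4C8, which is among those 14 genes, rose on both probe sets of its own.

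**Figure D5:**
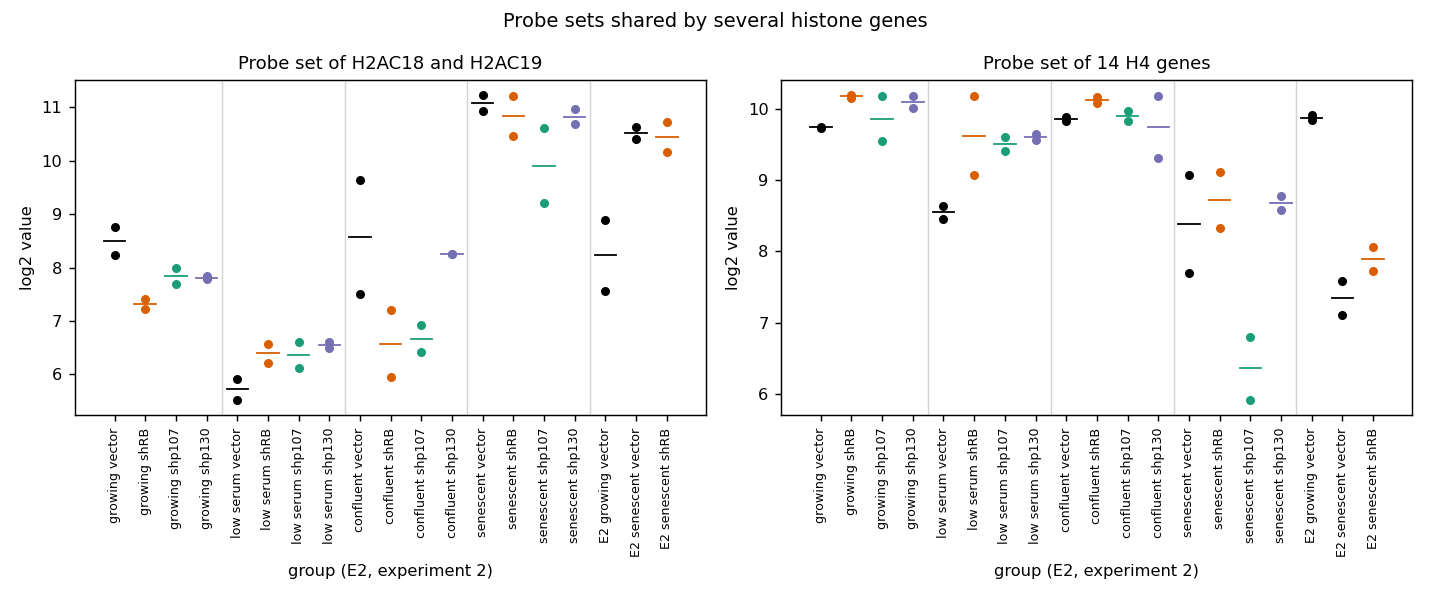
Log2 value of each array (points) and mean of the 2 arrays (bars) over the 19 groups (horizontal axis, E2 for experiment 2) for a probe set shared by H2AC18 and H2AC19 (left) and one shared by 14 H4 genes (right). The left set is highest in senescent and lowest in low serum cells, and the right set is lower in the senescent groups of both experiments. In low serum vector cells the right set is also lower than in growing vector cells.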

How the data were processed

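Gene expression was measured with Affymetrix arrays in 38 RNA samples of IMR90 cells, 19 groups of 2. The authors deposited 1 log2 value per probe set and array; the submitters' processing notes name GCRMA. Joint or separate processing of the arrays, and the settings, are not given in the sources used here. Values were used as deposited and ran from 0.86 to 13.88; the number of arrays limits the precision.

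Of 54613 probe sets, 41091 named 1 gene in the platform annotation, 1801 several and 11721 none. Genes above 5 on at least 2 arrays of experiment 1 were tested. The experiments had separate fits in limma 3.58.1 under R 4.3.3 (1 mean per group, eBayes, residual degrees of freedom 16 and 3, prior 4.85 and 5.35). P-values were adjusted within a contrast by Benjamini-Hochberg over the 8511 genes, for 30 contrasts in experiment 1 and 2 in experiment 2. Errors are SE, n = 2 against 2. The fit was tested on simulated data. Tables were prepared in Python 3.11.15 with pandas 2.3.3 and numpy 2.4.6, and figures with matplotlib 3.10.9.

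Members, gene lists and comparisons were chosen with earlier results of these data known. Named are all tested H1 genes, core histone genes called in at least 1 contrast, with array values for up to 6 per contrast with the largest called changes and no overlap, untested members once, SLBP, NPAT, RB1, RBL1 and RBL2, and up to 3 called genes per list and contrast; of these the text keeps the state comparisons and those of shRB. Alternatives were quantile normalization, no filter or a filter at 6, the mean over a gene's probe sets, an intensity trend, a replicate block, only the groups compared, and leaving out each array.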

Additional observations from a re-analysis of the deposited data

Results flagged for a closer look

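The effect of shRB on H2BC4 differed between states by a test of the difference itself. The difference between its effect in senescent and in growing cells was −2.22 on the log2 scale (SE 0.49, adjusted p 0.0185 by limma). Against low serum the difference was −2.10 (SE 0.49, adjusted p 0.0287). The first call ended without any 1 of 5 of its 8 arrays and the second without any 1 of 6 of 8, at −1.53 and −1.41 without senescent vector replicate 2. With only the groups compared neither passed, and with no filter the second did not (adjusted p 0.0522). H2BC4 passed the filter only through senescent arrays, so a larger difference there than in states near background was in part built into the choice of genes tested. Senescent shRB cells in experiment 2 also had less H2BC4 than vector cells, by −1.50, but that experiment had no growing or low serum shRB cells, so the difference between states was not tested there.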

How the results depend on the processing

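Of the 92 calls of single histone genes, 36 held under every alternative run, and 38 held without any 1 array. All 92 held under quantile normalization and an intensity trend, 91 with a replicate block, 88 of 90 with the mean over probe sets, 82 of 82 with a filter at 6, 75 with no filter and 70 with only the groups compared, and none turned direction. Counts of histone genes called moved by over 1.5 times in several comparisons. With no filter, low serum went from 1 to 0 in vector, shRB and shp107 cells alike, senescent shp107 cells from 9 to 5, confluent shp130 cells from 2 to 1, and the 4 differences of the shRB effect from 2 to 1 in all. With only the groups compared, confluent vector cells went from 1 to 0, shRB at confluence from 2 to 0, the differences of the shRB effect from 2 to 0 and shRB in experiment 2 from 3 to 6. With the replicate block the last count was 8. Leaving out 1 array gave 0 in low serum, 1 to 4 at confluence, 4 to 9 in senescence, 1 to 7 for shRB at confluence, 1 to 3 for shRB in experiment 2 and 0 to 3 for the differences of the shRB effect. The cause of these moves was not tested. The replicate numbers pair nothing that the labels state. Over 120 pairs of groups, same-numbered arrays deviated together with r from −0.38 to 0.49 (median 0.04), above 0.1 in 38, so the block stands only here. The replicate block ended 1 call, that of H2BC12 between senescent and confluent vector cells. The number of arrays a group, signal near background for 33 members and probe sets shared among copies limit what can be read.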
